A study of Mus musculus with 2 samples.

Results

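The aminoacyl-tRNA synthetases of mouse sarcoma cells were compared between cells silenced for the circular RNA circCsnk1g3 and control cells. The set holds 39 of the 25509 genes in the deposited count table: 20 genes of cytosolic enzymes, 16 of mitochondrial enzymes and 3 of the scaffold proteins that hold a group of the cytosolic enzymes together. The genes were taken by symbol from a list of these enzymes with no threshold on their values, although earlier results of these data were known when the list was made. Every gene of the list was found, 1 of them under an older symbol (Mars for Mars1).

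The cells were C57BL/6 mesenchymal stem cells lacking p53 (p53-/-) and overexpressing Ccne1 (Ccne1+). They had been grown as soft-tissue sarcoma, seeded in the lungs of recipient mice, taken back from lung foci and then transduced with a hairpin. The shcircCsnk1g3 library came from cells with a hairpin against the backsplice junction of circCsnk1g3, and the shCTR library from cells with a control hairpin. There was 1 library on each side, so no test between the conditions was made, and a difference between the libraries cannot be told apart from a difference between 2 cultures.

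Polyadenylated RNA was sequenced, with summed counts of 38792143 for shcircCsnk1g3 and 42709996 for shCTR. The targeted gene, Csnk1g3, had 2159 and 2411 counts, which stand for the linear transcript, because a circular RNA has no poly(A) tail. Of 10 mesenchymal markers 9 were above 3 counts, with a summed level of 10358 and 10793 CPM (TMM-scaled counts brought to a common library size), and Thy1 had 0 counts in shcircCsnk1g3 and 1 in shCTR. The leukocyte, endothelial and lung epithelial markers each summed, by cell type, to at most 0.544 CPM in either library, with Epcam, Sftpc, Lyz2 and Kdr at 0 in both. Hba-a1, a haemoglobin gene of red blood cells, had 423 and 604 counts. Trp53, lacking by label, had 3841 and 4334 counts, and the part of the gene that was deleted is not given in the sources used here.

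Aminoacyl-tRNA synthetases join each amino acid to its transfer RNA, the step that fixes the genetic code before the ribosome reads it. The cytosol and the mitochondria use separate enzymes, all of them encoded in the nucleus, and Gars and Kars make the glycine and lysine enzymes for both places. In vertebrate cells a part of the cytosolic enzymes sits in a large complex with the scaffolds AIMP1, AIMP2 and AIMP3, the last encoded by Eef1e1. When amino acids run short, uncharged transfer RNA activates the kinase GCN2, which phosphorylates the initiation factor eIF2 and raises translation of the transcription factor ATF4. Many cytosolic synthetase genes are known ATF4 targets, and the binding element of ATF4 with C/EBP partners holds the letters TGATGNAA.

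Of the 9 cytosolic genes that were highest in the silenced cells relative to the control, 5 held those letters near their start, and their sequences are shown for that reason. Capitals mark the 8 letters of TGATGNAA, in the order of the gene or as its reverse complement (TTNCATCA). All were taken from RefSeq on GRCm38.p6 and are written 5′ to 3′ on the gene's strand. Those of Aars, Gars and Tars are the 250 bases before the start site, and those of Iars and Yars are 30 bases around a match that lies just after the start. The Aars stretch is chr8:111033592-111033841 (plus strand), the Gars stretch chr6:55037751-55038000 (plus), the Tars stretch chr15:11399659-11399908 (minus), the Iars stretch chr13:49682126-49682155 (plus) and the Yars stretch chr4:129189895-129189924 (plus).
Aars: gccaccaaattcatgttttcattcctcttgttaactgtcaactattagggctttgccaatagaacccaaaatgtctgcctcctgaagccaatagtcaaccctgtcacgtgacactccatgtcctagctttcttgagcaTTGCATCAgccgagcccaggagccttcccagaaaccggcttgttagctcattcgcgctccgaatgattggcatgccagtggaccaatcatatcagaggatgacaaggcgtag
Gars: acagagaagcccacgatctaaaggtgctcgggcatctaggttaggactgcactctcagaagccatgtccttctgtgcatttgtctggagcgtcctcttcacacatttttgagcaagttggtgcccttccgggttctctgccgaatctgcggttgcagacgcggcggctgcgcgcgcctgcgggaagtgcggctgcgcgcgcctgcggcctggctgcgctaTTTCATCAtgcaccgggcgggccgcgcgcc
Tars: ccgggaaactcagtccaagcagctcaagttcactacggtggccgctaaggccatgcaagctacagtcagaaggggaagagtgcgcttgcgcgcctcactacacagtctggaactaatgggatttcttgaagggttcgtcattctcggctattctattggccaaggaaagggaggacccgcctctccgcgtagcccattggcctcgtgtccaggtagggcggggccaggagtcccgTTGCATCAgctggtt
Iars: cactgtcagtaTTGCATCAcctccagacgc
Yars: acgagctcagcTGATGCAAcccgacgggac

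The search covered windows from 250 bases before to 50 bases after each annotated start, on both strands. A window was at hand for 30 of the 39 genes. The 9 without one were Cars, Hars, Lars, Nars, Rars, Vars, Wars, Hars2 and Pars2. A match was found in 5 of 8 cytosolic genes known as ATF4 targets, in 0 of 5 other cytosolic genes, in 0 of 14 mitochondrial genes and in 0 of 3 scaffold genes. Over all 27025 genes with a window, 4.51% held a match. The 3 ATF4 targets with a window and no match were Eprs, Mars and Sars. Aars held a second match, TTTCATCA, that begins at base 10 of the transcript. The letters were chosen with the values of the genes known, a match describes the letters only, and no binding was measured.

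The cytosolic synthetases as a group were slightly higher in the silenced cells, and the shift was carried by one block of them. Values are log2 fold changes of TMM-scaled CPM of shcircCsnk1g3 over shCTR, and the range after each is the 95% exact interval of the ratio of counts. These intervals compare the libraries and cover counting error only, not amplification duplicates or differences between cultures. The 20 cytosolic genes had a median of 0.10 and a range from -0.22 (Kars) to 0.33 (Cars), against a median of 0.00 over the 12941 genes tested (at least 10 counts in 1 library or both). Of these 20 genes 15 were above 0. Their summed level was 5578 CPM (5555 to 5602) in shcircCsnk1g3 and 5032 CPM (5011 to 5053) in shCTR, 10.9% higher in the silenced cells.

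**Figure D1:**
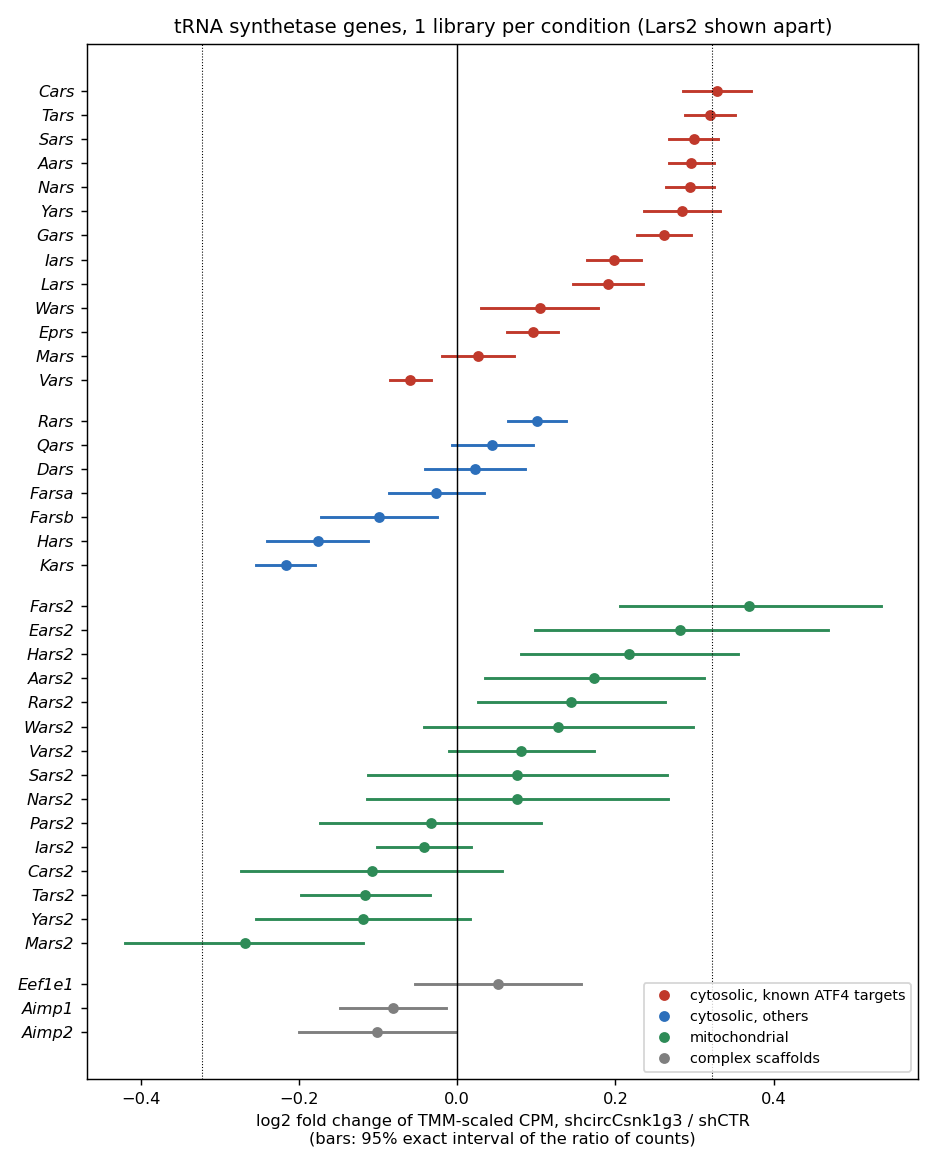
The log2 fold change of shcircCsnk1g3 over shCTR (x axis) is plotted for 38 genes, 1 per line, by group, with bars for the 95% exact interval of the ratio of counts and dotted lines at 25% higher and 20% lower. Most cytosolic genes known as ATF4 targets lie between 0.19 and 0.33, whereas the other cytosolic genes lie between -0.22 and 0.10.

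Differences of single members were small. With a threshold of 25% higher, or 20% lower, which is the same factor, 1 cytosolic gene (Cars) was higher and 0 were lower, where 12.3% and 13.1% of all genes tested were. These shares include many genes with few counts, and of the 10662 genes that reached 200 summed counts, which takes in all 39 members, 7.79% were higher and 9.06% lower. The count of cytosolic genes past the threshold depended on the scaling and on the threshold. With total counts in place of TMM 5 of the 20 were at least 25% higher, where 9.45% of the genes that reached 200 summed counts were. With TMM and a threshold of 15%, 7 of the 20 were higher, where 16.4% of those genes were. The 7 highest cytosolic genes lay close to the threshold, at 19.9% (Gars) to 25.6% (Cars) higher. The intervals were narrow, with half-widths from 0.03 to 0.19 on the log2 scale. They lay above 0 for 12 of the 20 cytosolic genes and below 0 for 4, against 29.5% and 31.0% of the genes that reached 200 summed counts.

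The enzymes for cysteine, threonine, serine, alanine, asparagine, tyrosine and glycine stood at the top. Cars, the cysteine enzyme (ENSMUSG00000010755, chromosome 7), had 9419 counts in shcircCsnk1g3 and 8080 in shCTR, a log2 fold change of 0.33 (0.29 to 0.37). Tars, the threonine enzyme (chromosome 15), had 16778 and 14486 counts, with 0.32 (0.29 to 0.35). Sars, which charges serine and also serves the selenocysteine transfer RNA (chromosome 3), had 17577 and 15395 counts, with 0.30 (0.27 to 0.33). Counts of all 3 genes were higher in the silenced cells although the library was the smaller one.

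Aars, the alanine enzyme (chromosome 8), had 20886 counts in shcircCsnk1g3 and 18331 in shCTR, a log2 fold change of 0.30 (0.27 to 0.32). In the annotation 1326 exonic bases of Aars are shared with Exosc6 on the same strand, and how the counting divided such reads is not stated. Nars, the asparagine enzyme (chromosome 18), had 18168 and 15963 counts, with 0.29 (0.26 to 0.33). Asns, which makes the asparagine that Nars uses, had 7730 and 6724 counts and a log2 fold change of 0.31 (0.26 to 0.36), close to that of Nars. Yars, the tyrosine enzyme (chromosome 4), had 7379 and 6528 counts, with 0.28 (0.24 to 0.33). Gars, the glycine enzyme of cytosol and mitochondria (chromosome 6), had 14599 and 13122 counts, with 0.26 (0.23 to 0.30). For each of these 7 genes the whole interval lay above 0.16, the upper quartile of all genes tested. The 7 were taken as the highest by these same values, and the share of all genes with such an interval was not computed.

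The isoleucine and leucine enzymes, which belong to the multi-synthetase complex, were higher by less. Iars (chromosome 13) had 14220 and 13351 counts, a log2 fold change of 0.20 (0.16 to 0.23). Lars (chromosome 18) had 8621 and 8138 counts, with 0.19 (0.15 to 0.23). Together with the 7 above these are the 9 highest cytosolic genes. All 9 are on the list of known ATF4 targets, which takes in 13 of the 20 cytosolic genes. That list was made with earlier results of these data known.

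The rest of that list was higher by less or not at all. Wars, the tryptophan enzyme, which is also known as an interferon-induced gene, had 2981 and 2988 counts, a log2 fold change of 0.10 (0.03 to 0.18). Eprs, which joins the glutamate and proline activities in one chain, had 15398 and 15527 counts, with 0.10 (0.06 to 0.13). Mars, the methionine enzyme, had 7729 and 8176 counts, with 0.03 (-0.02 to 0.07), so that a difference could not be told from counting error. Mars shares 68 exonic bases on the opposite strand with Ddit3, the stress gene also called CHOP, which had 4375 and 2242 counts. Vars, the valine enzyme and the member with the most counts, had 22091 in shcircCsnk1g3 and 24798 in shCTR, a log2 fold change of -0.06 (-0.09 to -0.03), and was the 1 gene of this list that was lower.

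Over the 13 known ATF4 targets the median log2 fold change was 0.26, with 12 genes above 0. The interval lay above 0 for 11 of the 13 and below 0 for 1, where 29.5% and 31.0% of the genes that reached 200 summed counts did. Their summed level was 4484 CPM in shcircCsnk1g3 and 3903 CPM in shCTR, a log2 ratio of 0.20 (0.19 to 0.21). The 7 other cytosolic genes had a median of -0.03, with 3 above 0 and 4 below. Their summed level was 1094 and 1129 CPM, a log2 ratio of -0.05 (-0.06 to -0.03). With total counts in place of TMM the median of these 7 genes was 0.00, where that of all genes was 0.03. The upper quartile of all genes tested was 0.16, which 9 of the 13 genes and 0 of the 7 exceeded. The division into known targets and others was made from general knowledge with earlier results of these data known, and is given as a description.

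Among those 7 genes the lysine and histidine enzymes were the lowest. Kars, which serves cytosol and mitochondria and is a core member of the complex (chromosome 8), had 10350 counts in shcircCsnk1g3 and 12961 in shCTR, a log2 fold change of -0.22 (-0.25 to -0.18). Hars, the histidine enzyme (chromosome 18), had 3619 and 4406 counts, with -0.18 (-0.24 to -0.11). Farsb and Farsa encode the beta and alpha subunits of the phenylalanine enzyme, which works as a tetramer of both. Farsb had 2788 and 3217 counts, with -0.10 (-0.17 to -0.03), and Farsa had 4282 and 4699 counts, with -0.03 (-0.09 to 0.03). The intervals of the subunits overlapped, so the pair could not be told apart. Dars for aspartate (0.02) and Qars for glutamine (0.04) had intervals that held 0. Rars for arginine was the highest of the 7, with 12002 and 12060 counts and a log2 fold change of 0.10 (0.06 to 0.14).

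**Figure D2:**
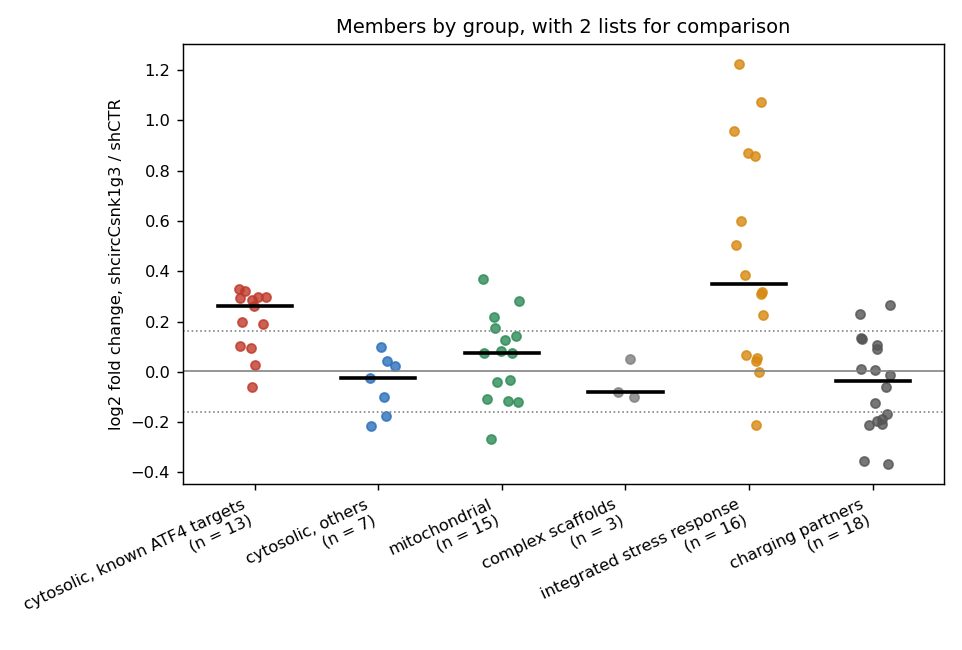
Each point is the log2 fold change of 1 gene (y axis) in 6 groups (x axis), thick bars are group medians, and the grey lines are the median and quartiles of the 12941 genes tested. The median is 0.26 for the cytosolic ATF4 targets, -0.03 for the other cytosolic genes and 0.35 for the integrated stress response genes.

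The cytosolic genes were also divided by membership in the multi-synthetase complex. The 8 enzymes of the complex had a median of 0.07, with a range from -0.22 (Kars) to 0.20 (Iars), and the 12 cytosolic genes outside it had a median of 0.27. The split overlaps with that by ATF4: 4 of the 8 enzymes in the complex are known ATF4 targets (median 0.14), and so are 9 of the 12 outside (median 0.29). Among the genes not known as ATF4 targets the order was the opposite, with a median of 0.03 for the 4 in the complex, 3 of them above 0, and -0.10 for the 3 outside it, 0 of them above 0. These groups hold 4 and 3 genes, and Farsa and Farsb, both among the 3, encode subunits of one enzyme. An effect of membership was not tested. The 3 scaffolds, which have no charging activity, lay within the quartiles of all genes tested (-0.16 and 0.16). AIMP1, also released from cells as a cytokine, is encoded by Aimp1 with 3392 and 3866 counts, a log2 fold change of -0.08 (-0.15 to -0.01). Aimp2 had 1549 and 1790 counts, with -0.10 (-0.20 to -0.00). Eef1e1 had 1444 and 1501 counts, with 0.05 (-0.05 to 0.16). Their summed level was 163 CPM in shcircCsnk1g3 and 169 CPM in shCTR.

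The enzymes fall into class I and class II by the fold of their catalytic core, with Eprs holding one of each. The 9 class I genes had a median of 0.10 and the 10 class II genes a median of 0.14. Within class II the 5 known ATF4 targets (Aars, Gars, Nars, Sars and Tars) lay between 0.26 and 0.32, and the 5 others (Dars, Farsa, Farsb, Hars and Kars) between -0.22 and 0.02, so the groups did not overlap. As background, the quartiles of all tested genes were -0.16 and 0.16. Class I held a wider mixture, from -0.06 (Vars) to 0.33 (Cars) among 7 known targets.

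The mitochondrial enzymes other than Lars2 had a small median shift and nearly the same summed level in both libraries. The 15 genes had a median of 0.08, with 9 above 0 and 6 below, and their summed level was 435 CPM (428 to 441) in shcircCsnk1g3 and 430 CPM (424 to 436) in shCTR. The median of the cytosolic genes exceeded theirs by 0.03 only. By the same threshold 1 gene (Fars2) was higher and 0 were lower, against 7.79% and 9.06% of the genes that reached 200 summed counts. The intervals lay above 0 for 5 genes, below 0 for 2 and held 0 for 8. Of the genes that reached 200 summed counts 29.5% lay above and 31.0% below, so the 5 genes above 0 are near the general share. Counts were lower than in the cytosolic group, from 451 to 4863, so their intervals were wider.

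The mitochondrial phenylalanine and glutamate enzymes had the highest values of the 15. Fars2 (chromosome 13) had 667 counts in shcircCsnk1g3 and 556 in shCTR, a log2 fold change of 0.37 (0.21 to 0.54). Its exons share 501 bases on the opposite strand with Nrn1, which had 6135 and 5265 counts. Ears2 (chromosome 7), which also charges the glutamine transfer RNA with glutamate before an amidotransferase converts it, had 515 and 456 counts, with 0.28 (0.10 to 0.47). Hars2 (chromosome 18) had 910 and 843 counts, with 0.22 (0.08 to 0.35). Aars2 (0.17) and Rars2 (0.14) also had intervals above 0.

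The lowest was Mars2, the mitochondrial methionine enzyme (chromosome 1), with 643 and 835 counts and a log2 fold change of -0.27 (-0.42 to -0.12). Tars2 (chromosome 3) followed among genes whose interval lay below 0, with 2291 and 2675 counts and -0.12 (-0.20 to -0.03). Iars2, the one of the 15 with the most counts (4383 and 4863), had -0.04 (-0.10 to 0.02). Yars2 (-0.12), Cars2 (-0.11), Pars2 (-0.03), Sars2 (0.08), Nars2 (0.08), Vars2 (0.08) and Wars2 (0.13) had intervals that held 0.

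Hars and Hars2 are neighbours on opposite strands, with annotated starts 197 bases apart and 195 exonic bases in common. Their values pointed in opposite directions, -0.18 for Hars and 0.22 for Hars2, and the intervals did not overlap. The kit marks strand, but whether the counting used it is not stated, so reads of the shared bases may have been divided between the pair.

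The cytosolic and the mitochondrial enzyme for the same amino acid were set side by side. The leucine pair was left out, since Lars2 (1.79, against 0.19 for Lars) is described apart. In 15 other pairs the cytosolic value was the higher in 9 and the lower in 6. Eprs stood in 2 of these pairs, against Ears2 and against Pars2, and Farsa alone was set against Fars2, with Farsb left out. The intervals were apart with the cytosolic gene above for cysteine, isoleucine, methionine, serine, threonine and tyrosine, 6 pairs. They were apart with the mitochondrial gene above for phenylalanine, histidine and valine, 3 pairs. With counts this high, intervals are often apart: those of 29.5% and 31.0% of the genes that reached 200 summed counts lay above and below 0, and no share over other pairs of genes was computed, so these counts describe the pairs only. The widest gap among these 15 was that of Cars over Cars2 (0.44), with Tars over Tars2 close to it (0.44). Tars and Tars2 differed in raw counts too, since Tars had more counts in the smaller library and Tars2 had fewer.

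**Figure D3:**
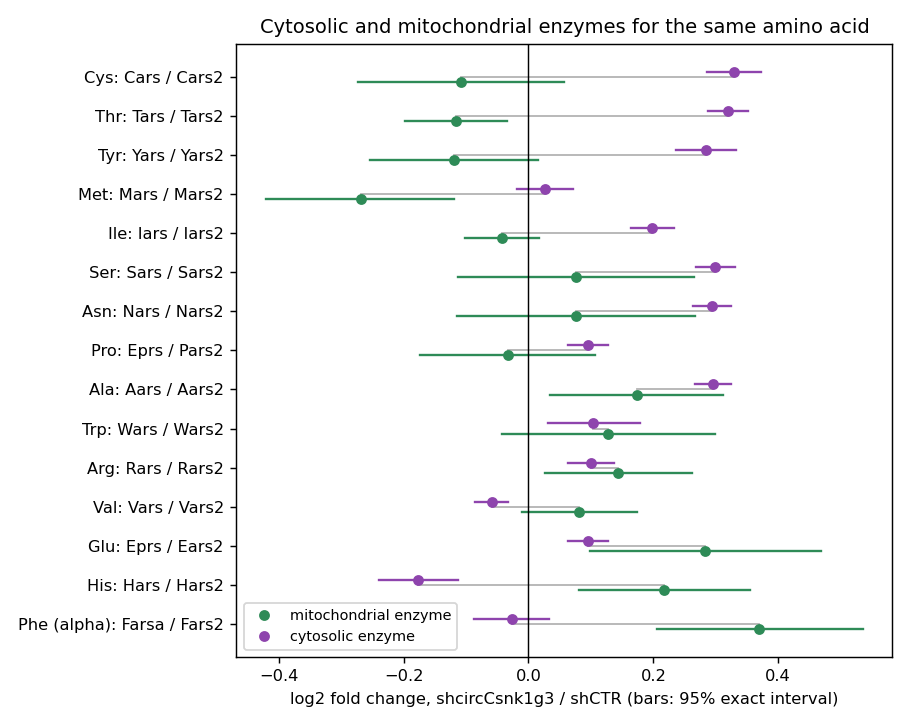
The log2 fold changes of shcircCsnk1g3 over shCTR (x axis) are shown for the cytosolic and the mitochondrial enzyme of 15 pairs, with the 95% exact interval of the ratio of counts as bars. The cytosolic gene is the higher of its pair in 9 pairs, from cysteine with a gap of 0.44 downwards.

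Levels between genes were compared as TMM-scaled CPM per kb of the principal transcript. In shCTR the cytosolic genes had a median level of 68.6 CPM per kb, from 37.4 (Farsb) to 153 (Kars), and the 15 mitochondrial genes a median of 6.19, from 1.75 (Mars2) to 26.4 (Tars2). The lowest cytosolic gene thus stood above the highest of these 15. The cytosolic level was 3.25 to 47.7 times that of the mitochondrial partner, with the smallest ratio for threonine and the largest for asparagine. Kars, Vars, Nars, Rars and Gars led the order in shCTR, with levels from 130 to 153 CPM per kb. In shcircCsnk1g3 the highest cytosolic genes were Nars (169), Gars (156) and Rars (145), ahead of Vars (136) and Kars (131). The scaffold Aimp1 had 81.3 CPM per kb in shCTR and 76.8 in shcircCsnk1g3, Aimp2 35.8 and 33.3, and Eef1e1 13.9 and 14.4. The transcript lengths come from the annotation and not from these libraries, so that neighbours in this order may change places with another choice of transcript.

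**Figure D4:**
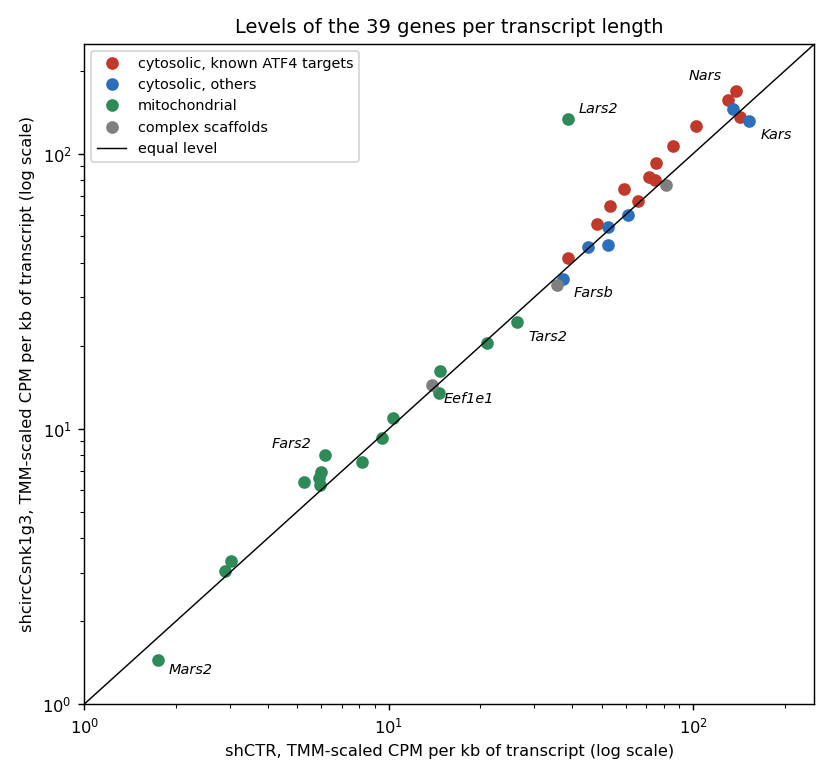
Levels in TMM-scaled CPM per kb of transcript are plotted for 39 genes, shCTR on the x axis and shcircCsnk1g3 on the y axis, both on log scales, with a line of equal level. The mitochondrial genes other than Lars2 lie at 26.4 or less in shCTR and the cytosolic genes at 37.4 or more, and Lars2 alone lies far from the line.

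Lars2, the mitochondrial leucine enzyme (ENSMUSG00000035202, chromosome 9, 123366927 to 123462666, plus strand, GENCODE M21 on GRCm38), stood apart from all other members. It had 20448 counts in shcircCsnk1g3 and 6360 in shCTR, a log2 fold change of 1.79 (1.75 to 1.83) or 3.46-fold. Among genes that reached 200 summed counts, 9 had a larger value. The next member, Fars2, was at 0.37, and the cytosolic leucine enzyme Lars at 0.19. In shCTR the level of Lars2, 38.7 CPM per kb, was already above that of the other mitochondrial enzymes, and in shcircCsnk1g3 it was 134. Lars2 made up 25.9% of the counts of the 16 mitochondrial genes in shCTR and 54.5% in shcircCsnk1g3. With Lars2 included, their summed level would read as 956 against 581 CPM.

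The transcripts Yam1 and Gm42418, of the ribosomal RNA region of chromosome 17, were also higher in shcircCsnk1g3. Yam1 had 99090 and 29819 counts, a log2 fold change of 1.84 (1.82 to 1.86), and Gm42418 had 60389 and 24337, with 1.42 (1.40 to 1.44). Gm26917, of the same region, had 4923 and 5278 counts, with 0.01 (-0.05 to 0.06). Poly(A) libraries hold ribosomal RNA only as a residue, and its part in the Lars2 counts was not tested. Removing these transcripts and Lars2 from the library size left the cytosolic median at 0.10.

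**Figure D5:**
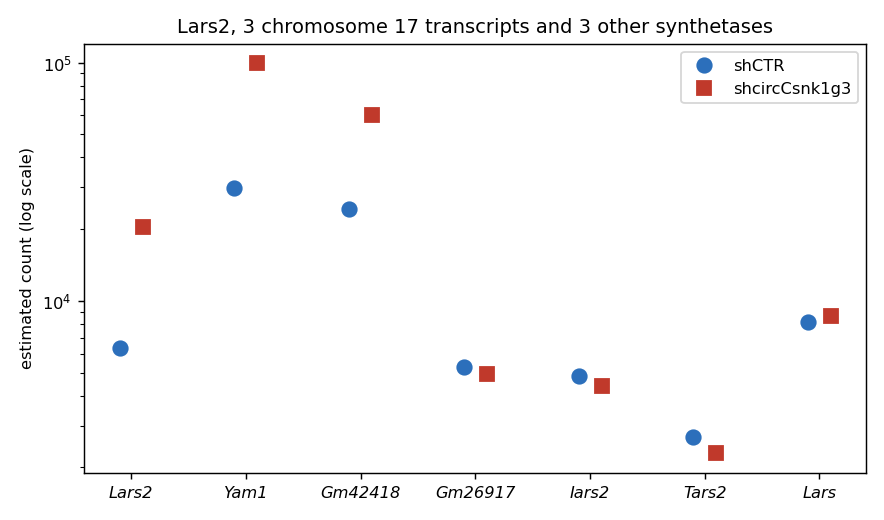
Estimated counts (y axis, log scale) in shCTR and shcircCsnk1g3 are shown by gene (x axis). The genes are Lars2, 3 transcripts of the ribosomal RNA region of chromosome 17 and 3 other synthetase genes. Lars2, Yam1 and Gm42418 are higher in shcircCsnk1g3, with log2 fold changes of 1.79, 1.84 and 1.42, whereas Gm26917, Iars2, Tars2 and Lars lie close together in both libraries.

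Partners of the charging reaction showed no shift to higher values. Of 18 genes 8 were above 0 and 10 below, with a median of -0.04, 0 at least 25% higher and 2 at least 20% lower. Since 12.3% and 13.1% of all genes tested passed these limits, the 2 lower genes are near the general share. Xpot, the exporter of transfer RNA from the nucleus and a known ATF4 target, had 7784 and 7794 counts, a log2 fold change of 0.11 (0.06 to 0.15). Ankrd16, a partner of the alanine enzyme, had 641 and 574 counts, with 0.27 (0.10 to 0.43). The lower ones were Dtd1, a deacylase that clears D-amino acids from transfer RNA, with 291 and 405 counts and -0.37 (-0.59 to -0.15), and Tarsl2, a second cytosolic threonine enzyme, with 460 and 634 counts and -0.35 (-0.53 to -0.18). Tarsl2 and Tars thus lay on opposite sides of 0.

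Of the amidotransferase that completes mitochondrial glutamine charging, Gatc had 689 and 859 counts, a log2 fold change of -0.21 (-0.36 to -0.06), Qrsl1 299 and 369, with -0.19 (-0.42 to 0.03), and Gatb 439 and 471, with 0.01 (-0.18 to 0.20). Ears2, whose product this enzyme converts, was at 0.28. In the selenocysteine branch that begins with Sars, Pstk was at -0.19 (-0.36 to -0.02), Sephs1 at -0.21 (-0.28 to -0.13), Sephs2 at -0.12 (-0.20 to -0.05) and Sepsecs at 0.13 (-0.01 to 0.28). The steps after Sars did not share its value of 0.30.

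The integrated stress response genes, used as a list for comparison, had a median log2 fold change of 0.35, with 14 of 16 above 0, 8 at least 25% higher and 0 at least 20% lower, where 12.3% and 13.1% of all genes tested were. That this list is higher in these libraries was known when it was chosen. Its values ran from -0.21 to 1.22, whereas those of the 38 members other than Lars2 ran from -0.27 to 0.37. Atf3 had 1978 and 911 counts, with 1.22 (1.11 to 1.34), and Trib3 6886 and 4091, with 0.86 (0.80 to 0.92). Atf4 itself, which is controlled mainly by translation, had 37477 and 38849 counts, with 0.06 (0.04 to 0.08). The amino acid transporters Slc7a5 and Slc3a2, which form one carrier, were at 0.32 and 0.39, near the values of Cars and Tars. Chac1 (0.04), Psat1 (0.07) and Phgdh (-0.00), also known ATF4 targets, were near 0, and Cebpb was at -0.21 (-0.30 to -0.12).

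The medians of other parts of the translation machinery were slightly below 0. The 83 genes of mitochondrial translation (mitochondrial ribosomal proteins and factors) had a median of -0.07, with 54 of 83 below 0, whereas the 15 mitochondrial synthetases were at 0.08. The 49 cytosolic initiation and elongation factors had a median of -0.05, with 30 below 0. The cytosolic synthetases were at 0.10 and the known ATF4 targets among them at 0.26. Intervals lay below 0 for 35 and above 0 for 7 of the 83 genes, and for 23 and 13 of the 49. Over the 12941 genes tested these counts were 3651 and 3476, and 6420 genes were below 0. Since all the RNA of a culture was sequenced together, a change in the RNA of every cell and a change in a fraction of the cells cannot be told apart.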

How the data were processed

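The 2 libraries were stranded poly(A) RNA-seq (TruSeq). By the study's methods the authors aligned reads to GRCm38 with STAR and summarised them per gene with RSEM. The deposited count table holds RSEM estimated counts, already rounded to whole numbers. RSEM divides reads shared by several genes, and its strand setting is not stated. Its 92 spike-in rows are 0 and were left out. The other table the authors deposited holds TMM-scaled CPM of 11624 genes, all 39 members among them, and served as an alternative. TMM factors (edgeR 4.0.16, R 4.3.3) were 1.01 and 0.989 over genes that reached 10 counts in at least 1 library, with a prior count of 2 in log2 fold changes. Intervals are 95% Clopper-Pearson for ratios and exact Poisson for sums (python 3.11.15, scipy 1.17.1, numpy 2.4.6, pandas 2.3.3, matplotlib 3.10.9). Only the fold changes and intervals were tested on simulated data, with Poisson counts that hold no differences between cultures and no duplicates. Positions and lengths are from GENCODE M21 (25251 of 25509 identifiers matched), whose release the study's methods do not name. The members and all lists were chosen with earlier results of these data known. Any member could be named, with full values by rule for those past the threshold and for the highest and lowest of each class. Full values of other members and the genes named from the lists were chosen after their values were seen. Kinases, binding proteins and the like were left out of the list of factors. DESeq2 1.42.0 size factors, total counts and other filters, priors and thresholds were the alternatives.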

Additional observations from a re-analysis of the deposited data

How the results depend on the processing

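With 1 library for each hairpin, no library could be left out. No paired analysis was possible because each group held 1 library. Of 118 values of groups and of Lars2 under the alternatives, 107 were within the limits set by the main values. The limit was the exact interval for a sum, a half-width typical of the genes for a median and a fixed factor for a count. Such limits are wide for medians near 0: that of the 7 other cytosolic genes went from -0.03 to 0.00 with total counts and stayed within them. No value past its threshold or interval changed direction. Scaling by total counts, which moved the median of all genes to 0.03, gave 5 cytosolic genes at least 25% higher in place of 1 (9.45% of the genes that reached 200 summed counts), and summed levels of 5639 and 4978 CPM. With a threshold of 15%, 7 cytosolic genes were higher and 1 lower, and of the mitochondrial genes without Lars2 3 were higher and 1 lower, where 16.4% and 17.5% of those genes were. With one of 50%, 0 cytosolic genes and 0 mitochondrial genes other than Lars2 were higher, where 1.99% were. Keeping Lars2 among the mitochondrial genes gave 956 and 581 CPM. For the members other than Lars2, 301 of 304 single values stayed within their intervals. The 3 outside were Aars (0.33), Nars (0.33) and Vars (-0.03), with total counts. The counts of 451 to 24798 per member allow half-widths of 0.03 to 0.19, and 1 library a group sets the limit on every statement.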
